A study of Mus musculus with 8 samples.

Results

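The interleukin-1 (IL-1) family was followed through 9 genes, the ligands *Il1a*, *Il1b*, *Il18* and *Il33*, the antagonist *Il1rn*, the receptor chains *Il1r1*, *Il1rap* and *Il1rl1*, and the decoy receptor *Il1r2*. The 9 genes were picked by symbol, matched to Entrez identifiers through the deposited comparison table and joined to the read counts of each library, and they are 9 of 27179 genes counted. Of the 16658 genes that passed a minimum level (over 0.2 CPM, counts scaled to the library total, in at least 4 libraries), 8 were members, and *Il1a* fell below it. RNA was sequenced from the whole uterus of mice at postnatal day 10 (PD10), with 1 library per mouse, on a mixed C57BL/6/129SvEv background. The 4 control mice carried *Ezh2* alleles flanked by loxP sites (*Ezh2* f/f) without Cre, and the 4 conditional knockout (cKO) mice carried the same alleles with *Amhr2*-Cre. EZH2 is the enzyme that places the repressive mark H3K27me3 in Polycomb-repressed chromatin. This Cre is driven from the anti-Müllerian hormone receptor gene and deletes floxed exons in the uterine stroma and muscle lineage, with activity in oviduct and ovary too, so counts from the whole uterus include epithelial, vascular and immune cells in which *Ezh2* was not targeted.

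IL-1 alpha and IL-1 beta bind the receptor IL1R1, which recruits the accessory chain IL1RAP and signals through MYD88 and IRAK kinases to NF-kB. Both an antagonist and a decoy restrain IL-1: the receptor antagonist encoded by *Il1rn* occupies IL1R1 without signalling, and IL1R2 binds IL-1 but lacks the intracellular domain that signals. IL-33 signals through ST2 (encoded by *Il1rl1*) with IL1RAP, and IL-18 through its own pair of receptor chains. In the uterus this family is known mainly from inflammation, implantation and labour.

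By the annotation of GRCm38, the genes sit on 5 chromosomes. *Il1r2* (Entrez 16178, 40084692 to 40125230), *Il1r1* (Entrez 16177, 40222480 to 40316201) and *Il1rl1* (Entrez 17082, 40404864 to 40465418) are on chromosome 1. *Il1rn* (Entrez 16181, 24336860 to 24351491), *Il1a* (Entrez 16175, 129299609 to 129310186) and *Il1b* (Entrez 16176, 129364569 to 129371164) are on chromosome 2. The others are *Il18* (Entrez 16173, 50554700 to 50581841) on chromosome 9, *Il1rap* (Entrez 16180, 26581509 to 26730128) on chromosome 16 and *Il33* (Entrez 77125, 29925113 to 29960718) on chromosome 19.

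Library totals ran from 25287141 to 36685807 counts, and a count of 3, used as the detection floor, corresponded to 0.0824 to 0.117 CPM. The *Ezh2* gene as a whole gave 49.5, 40.5, 54.7 and 35.4 CPM in controls 1 to 4 and 30.5, 38.0, 40.7 and 38.0 CPM in cKO 1 to 4. The groups overlapped and the difference did not pass the test (log2 fold change -0.29, SE 0.134, adjusted p = 0.247, edgeR), and the floxed exons, which would show recombination directly, were not counted apart from the rest of the gene. Summed fat markers were between 3.56 and 5.32 CPM in the controls, at 115, 247 and 112 CPM in cKO 1 to 3 and at 5.50 CPM in cKO 4, so cKO 1 to 3 stand apart from the other libraries. The markers that led this list were *Fabp4* and *Car3*. By edgeR 1 of 7 fat markers tested passed an adjusted p of 0.05, the beta-3 adrenergic receptor gene *Adrb3*, which was higher in all 4 cKO libraries (log2 fold change 1.34, adjusted p = 0.00204). DESeq2 called 6 of the 7 higher and limma-voom 1, and all 7 were higher at an unadjusted p under 0.05. The shares of all genes called higher were 2.62% by edgeR, 4.76% by DESeq2, 2.41% by limma-voom and 11.4% at an unadjusted p under 0.05. In cKO 4 *Adrb3* was 2.10 CPM, against at most 1.18 CPM in controls, and *Fabp4* was 1.61 CPM, against at most 1.43 CPM. The sum in cKO 4 is thus near the control range, while these 2 markers were above theirs. In cKO 4 *Car3* (0.911 CPM, against at least 1.04 CPM in controls) and *Adipoq* (0.0350 CPM, against at least 0.0631 CPM) were below all controls. The rest of the list lay within the control range of each marker. For the comparisons below, values with the fat score in the fit and from cKO 4 alone stand beside each member whose call they change.

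*Il1r2* and *Il1rl1* were the 2 members past an adjusted p of 0.05, and the stretch before their annotated starts is shown to let the promoters be read beside the counts. The sequences are from RefSeq on GRCm38.p6, on the plus strand, 250 bases up to the base before each start, with CG dinucleotides, the sites of DNA methylation, in capitals. *Il1r2* has 1 start there (chr1:40085843-40086092) and *Il1rl1* has 2 (chr1:40429320-40429569 and chr1:40439379-40439628). Each stretch lies inside the gene span given above, which begins further upstream (at 40404864 for *Il1rl1*). Sequence before the beginning of those spans is not shown.
Il1r2: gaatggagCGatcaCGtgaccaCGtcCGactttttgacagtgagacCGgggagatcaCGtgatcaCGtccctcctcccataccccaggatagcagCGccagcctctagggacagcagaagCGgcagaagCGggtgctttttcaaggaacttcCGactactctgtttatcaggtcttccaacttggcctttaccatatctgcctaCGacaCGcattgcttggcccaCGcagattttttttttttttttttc
Il1rl1 first start: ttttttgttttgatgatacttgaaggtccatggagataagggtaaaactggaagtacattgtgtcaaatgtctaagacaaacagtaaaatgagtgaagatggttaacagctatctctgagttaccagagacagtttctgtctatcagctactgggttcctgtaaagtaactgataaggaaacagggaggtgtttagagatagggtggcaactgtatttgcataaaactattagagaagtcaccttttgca
Il1rl1 second start: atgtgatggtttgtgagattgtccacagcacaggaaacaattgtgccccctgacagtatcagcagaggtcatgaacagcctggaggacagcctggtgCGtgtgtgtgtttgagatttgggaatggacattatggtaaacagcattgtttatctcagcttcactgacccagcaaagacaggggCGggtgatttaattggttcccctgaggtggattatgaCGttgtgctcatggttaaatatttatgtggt
The *Il1r2* stretch holds 14 CG dinucleotides, against a median of 6 over 32851 promoters of the same length. The *Il1rl1* stretches hold 0 and 3. Neither gene holds the AP-1 motif TGANTCA or the NF-kB consensus on either strand in these stretches, which is a statement on these letters only. Of the 32851 promoters, 6.75% hold the AP-1 motif and 7.25% the NF-kB consensus.

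*Il1r2*, which encodes the decoy receptor, rose in the cKO uterus. Its level was 1.23, 0.735, 1.07 and 0.906 CPM in controls 1 to 4 and 2.68, 2.58, 2.56 and 2.17 CPM in cKO 1 to 4. Every cKO library lay above every control library, and the raw counts behind these values ran from 19 to 83. The mean went from 0.985 ± 0.213 to 2.50 ± 0.223 CPM (SD, n = 4 per genotype), a log2 fold change of 1.33 (SE 0.1998, 95% confidence interval 0.90 to 1.77, 2.52-fold, adjusted p = 0.00204, edgeR quasi-likelihood test). An exact two-sided permutation test over the 70 arrangements of the 8 libraries gave p = 0.029, the smallest they can give. The cKO library whose summed fat markers were near the control range, cKO 4, had 2.17 CPM of *Il1r2*, above all 4 controls, and alone against the controls it gave a log2 fold change of 1.13 with adjusted p = 0.366. With the fat score as a covariate the value was 1.18 (adjusted p = 0.13), so the call was lost though the size changed little. A change in the number of cells of a type and a change in RNA per cell cannot be told apart in whole tissue. Its annotated span, which begins upstream of the RefSeq start printed above, overlaps the lncRNA *Gm16894*, which had 11 to 33 counts per library and a log2 fold change of 0.23 (adjusted p = 0.709).

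**Figure D1:**
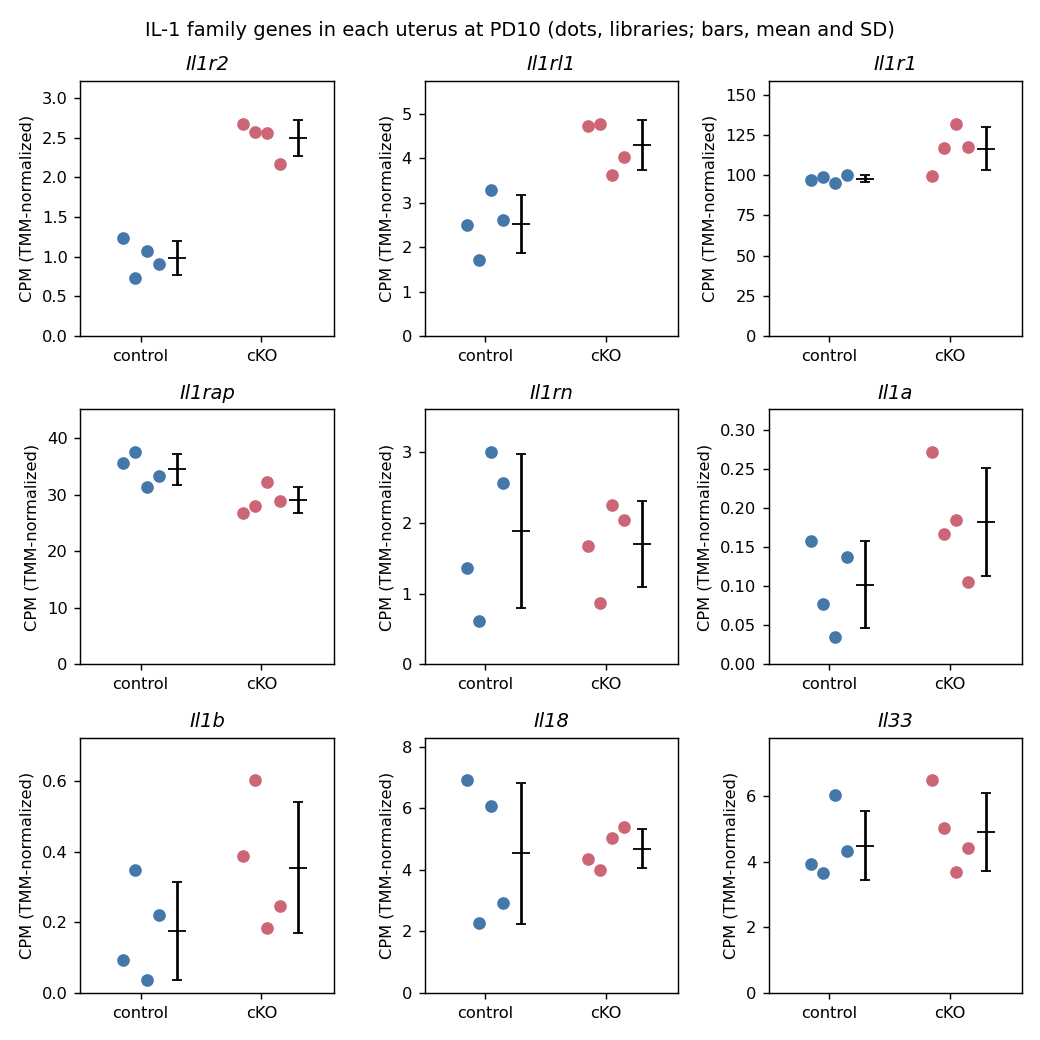
CPM of the 9 IL-1 family genes in each library (dots), with the mean and SD of each genotype (bars); each panel has its own axis from 0. *Il1r2* and *Il1rl1* are the panels in which no control and cKO dots overlap.

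By the rule for differential expression (a fold change over 2 and adjusted p under 0.05), *Il1r2* was the only member called of 8 tested. Of all 16658 genes tested, 1.3% were called, and 0.666% were called and higher in cKO. By adjusted p alone edgeR called 2 of 8 members higher and 0 lower, against 5.34% of all genes called in either direction and 2.62% called higher. DESeq2 called 3 members higher and 0 lower, against 9.04% of all genes in either direction and 4.76% higher. With limma-voom 2 members were higher and 0 lower, against 4.98% and 2.41% of all genes. At an unadjusted p under 0.05 (edgeR) 3 members were higher and 1 lower, against 21.2% and 11.4% of all genes. The counts given below for other gene lists are read against the same shares. The groups did not overlap for 2 of 8 members, against 12.3% of all genes. The 8 members had a median log2 fold change of 0.19, beside 0.00044 for all genes tested, and 6 of 8 lay above 0. No test of the members as a group was made.

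*Il1rl1*, which encodes the IL-33 receptor chain ST2 of mast cells and type 2 lymphoid cells, also rose, by less than 2-fold. It had 2.49, 1.70, 3.28 and 2.61 CPM in controls 1 to 4 and 4.74, 4.79, 3.63 and 4.03 CPM in cKO 1 to 4. The lowest cKO library was above the highest control, though the 2 were close. Means were 2.52 ± 0.648 and 4.30 ± 0.561 CPM (SD, n = 4), a log2 fold change of 0.76 (SE 0.191, interval 0.35 to 1.18, adjusted p = 0.0371, edgeR; exact permutation p = 0.029). The call depends on single libraries: without control 1, 2 or 4, or cKO 1, 2 or 3, the adjusted p lay between 0.0523 and 0.113, with the log2 fold change between 0.62 and 0.83. With the fat score as a covariate it was 0.65 (adjusted p = 0.552), and in cKO 4 alone 0.67 (adjusted p = 0.728).

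*Il1r1*, which encodes the signalling receptor for both IL-1 cytokines, was by far the highest of the family per length. It had 97.2, 98.8, 95.4 and 100.1 CPM in the controls and 99.3, 117, 132 and 117 CPM in the cKO libraries. cKO 2 to 4 exceeded all controls and cKO 1 did not, so the groups overlapped. The log2 fold change was 0.25 (SE 0.0746, interval 0.091 to 0.41, adjusted p = 0.0721, edgeR; exact permutation p = 0.057). DESeq2 gave adjusted p = 0.0332 for the same difference, and leaving out cKO 1 gave 0.32 with adjusted p = 0.0173.

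*Il1rap*, which encodes the accessory chain shared by IL-1 and IL-33 receptors, had 35.7, 37.6, 31.4 and 33.4 CPM in the controls and 26.9, 28.1, 32.3 and 28.9 CPM in the cKO libraries. Of the cKO libraries, cKO 3 lay above control 3 and the others lay below all controls. Its log2 fold change was -0.25 (SE 0.0782, interval -0.42 to -0.079, adjusted p = 0.0894, edgeR; exact permutation p = 0.057), the opposite sign to *Il1r1*.

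The decoy was small beside the signalling receptor in every library. Expressed per length of exon, *Il1r2* was 4.22, 2.48, 3.74 and 3.02% of *Il1r1* in controls 1 to 4 and 8.996, 7.33, 6.45 and 6.17% in cKO 1 to 4, and the groups did not overlap. The log2 ratio of *Il1r2* to *Il1r1* (each CPM plus 0.1) was taken within each library, so scaling between libraries enters only through the pseudocount. This ratio differed by 1.03 between genotypes (SD 0.308 in controls and 0.240 in cKO, exact permutation p = 0.029). With 1 CPM in place of 0.1 the difference was 0.578, since the pseudocount is then as large as the control level of *Il1r2*.

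**Figure D2:**
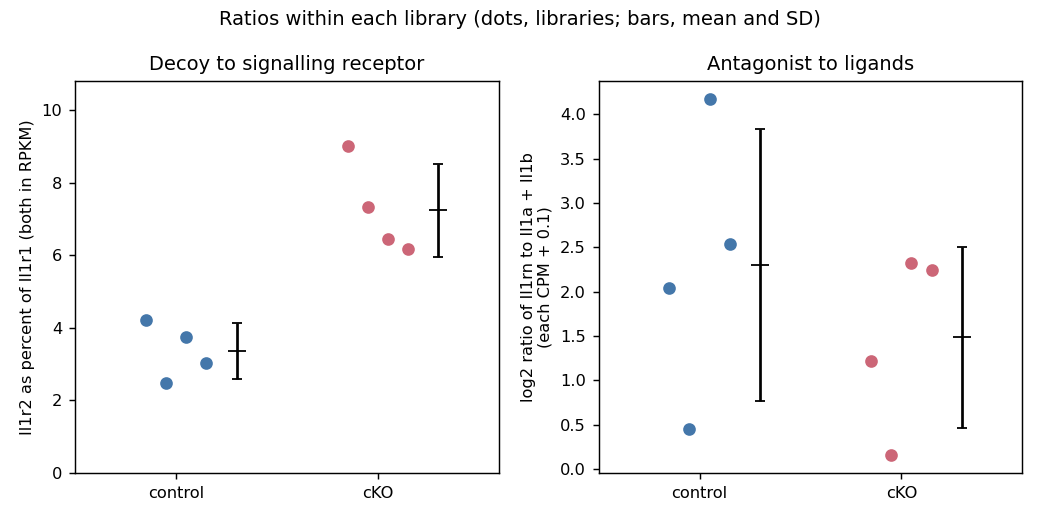
Left, *Il1r2* as a percent of *Il1r1* in each library, both per kilobase of exon; right, log2 ratio of *Il1rn* to *Il1a* plus *Il1b* in each library; dots are libraries and bars the mean and SD. The decoy share is 2.48 to 4.22% in controls and 6.17 to 8.996% in cKO, while the antagonist ratios overlap.

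The IL-1 ligands themselves were near the detection floor. *Il1b*, the form made mainly by myeloid cells, had 3, 9, 1 and 8 counts in the controls and 10, 18, 6 and 7 in the cKO libraries, that is 0.0357 to 0.348 and 0.185 to 0.602 CPM. The groups overlapped. Its log2 fold change of 1.02 had an interval of -0.20 to 2.24 (SE 0.564, adjusted p = 0.321, edgeR; exact permutation p = 0.17), so neither no change nor a 4-fold rise lies outside what these counts allow. Adding the fat score to the fit gave 0.20, cKO 4 alone gave 0.50, and leaving out 1 library gave 0.63 without cKO 2 to 1.49 without control 2. *Il1a*, released largely by damaged epithelium and other cells, had 5, 2, 1 and 5 counts in the controls and 7, 5, 6 and 3 in the cKO libraries and was not tested. Without the filter on low levels its log2 fold change was 0.75 (SE 0.576, adjusted p = 0.526; exact permutation p = 0.14).

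*Il1rn*, which encodes the antagonist, spread widely within both genotypes, with 1.36, 0.619, 3.00 and 2.55 CPM in the controls and 1.67, 0.870, 2.25 and 2.03 CPM in cKO. All cKO values lay inside the control range, and the log2 fold change was -0.15 (SE 0.429, interval -1.10 to 0.80, adjusted p = 0.875, edgeR; exact permutation p = 1). Against the summed ligands the antagonist gave a log2 ratio of 2.30 ± 1.53 in controls and 1.49 ± 1.02 in cKO (SD, n = 4, each sum plus 0.1 CPM), a difference of -0.82 with exact permutation p = 0.37. The size rests on single libraries, since it was -0.19 without control 3, -0.38 without cKO 2 and -1.44 without control 2, and with a pseudocount of 1 CPM it was -0.30.

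*Il33*, the alarmin that binds ST2, had 3.94, 3.67, 6.03 and 4.34 CPM in the controls and 6.49, 5.02, 3.70 and 4.41 CPM in cKO. Its values overlapped throughout, with a log2 fold change of 0.12 (SE 0.197, interval -0.31 to 0.55, adjusted p = 0.764, edgeR). *Il18* had 6.91, 2.28, 6.06 and 2.91 CPM in the controls and 4.35, 3.98, 5.02 and 5.39 CPM in cKO. Its controls spread more than its cKO libraries, and the log2 fold change was 0.05 (SE 0.313, interval -0.65 to 0.74, adjusted p = 0.953, edgeR). The annotated span of *Il18* overlaps that of *Bco2* (23 to 172 counts), and how reads in both were counted is not given in the sources used here.

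Per kilobase of exon the order in the controls ran from *Il1r1* (15.4 CPM per kb) through *Il18* (4.41), *Il1rap* (3.04), *Il33* (1.56), *Il1r2* (0.516), *Il1rl1* (0.366), *Il1rn* (0.340) and *Il1b* (0.0915) to *Il1a* (0.0517). Neighbours that overlapped over the control libraries were *Il18* and *Il1rap*, and each pair from *Il1r2* down. In cKO the order of means did not change, *Il1r2* reached 1.31 CPM per kb and then overlapped *Il33* (1.70), and no longer overlapped *Il1rl1* (0.623). The union of exons of all annotated transcripts set the lengths, so a gene with a long rare exon is placed too low.

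The 6 receptor genes of this cluster lie side by side over 467 kb of chromosome 1, which allowed *Il1r2* to be set beside its neighbours. *Il1rl2*, the receptor for IL-36, had a log2 fold change of 0.20 (adjusted p = 0.398), *Il18r1* -0.11 (adjusted p = 0.654) and *Il18rap* -0.41 (adjusted p = 0.576). Beyond the cluster, *Map4k4* (0.03), *Slc9a2* (0.30) and *Mfsd9* (0.05) did not pass the test either. The genes past adjusted p were thus *Il1r2* and *Il1rl1*, which are not adjacent.

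**Figure D3:**
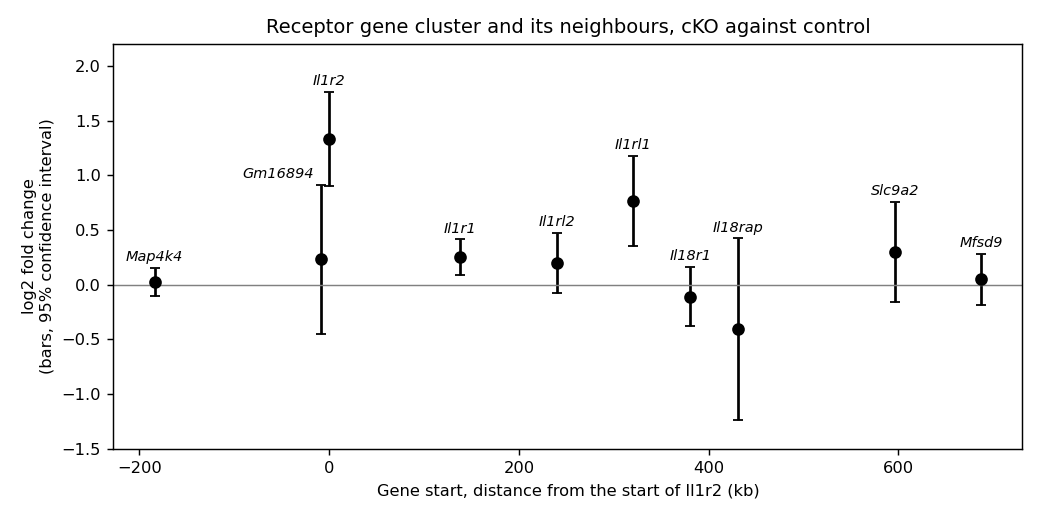
Log2 fold change (cKO against control, bars 95% confidence interval) of genes tested around the receptor cluster, by distance of the gene start from *Il1r2* in kb. *Il1r2* (1.33) and *Il1rl1* (0.76) have intervals above 0, as does *Il1r1* (0.25, adjusted p = 0.0721).

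The further family genes showed no change past the test. Of 12 listed, 11 were in the counts, 8 were tested and 0 passed an adjusted p of 0.05 in either direction by edgeR, DESeq2 or limma-voom, nor did any have an unadjusted p under 0.05, and their median was -0.07 on the log2 scale. *Il1f10* had 0 counts everywhere. The highest of them per library were *Il1rl2* (16.9 and 19.4 CPM in control and cKO) and *Il18r1* (14.1 and 13.1 CPM). Among the processing and release genes, which cut and export IL-1 and IL-18, 1 of 12 tested was lower and 0 higher by edgeR, DESeq2 and limma-voom alike (2 lower and 1 higher at an unadjusted p under 0.05). The lower one was *Casp4*, the inflammatory caspase that senses lipopolysaccharide, at 12.2 ± 1.94 CPM in controls and 8.06 ± 1.49 CPM in cKO (log2 fold change -0.59, SE 0.146, adjusted p = 0.0345, edgeR, no overlap).

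Of the 23 signalling genes below the receptors, 1 was higher and 0 lower by edgeR and DESeq2 and 0 either way by limma-voom (2 higher and 1 lower at an unadjusted p under 0.05), with a median of 0.02 on the log2 scale. The one called was *Tab1*, an adaptor of the kinase TAK1, at 43.0 and 50.3 CPM (log2 fold change 0.22, SE 0.0594, adjusted p = 0.0479, edgeR). Of 20 genes known to respond to IL-1, 14 were tested, and 1 was higher and 0 lower by edgeR, against 3 and 0 by DESeq2 and at an unadjusted p under 0.05, and 2 and 0 by limma-voom. Their median was 0.09 on the log2 scale. The summed level of all 20 was 66.6 to 72.3 CPM in controls and 76.8 to 89.9 CPM in cKO. These ranges do not overlap, but the gap rests on 1 gene: without *Ptgs2* the sums were 55.0, 59.6, 43.9 and 45.5 CPM in controls 1 to 4 and 62.8, 59.8, 59.3 and 46.6 CPM in cKO 1 to 4, which overlap. *Ptgs2*, the inducible prostaglandin synthase, named here after its values were seen, had a mean of 18.1 CPM in controls and 28.5 CPM in cKO (log2 fold change 0.65, adjusted p = 0.0542, edgeR). The gene called by edgeR was *Cxcl5*, a neutrophil-attracting chemokine, with 1.83, 1.16, 1.68 and 1.87 CPM in controls and 3.69, 3.98, 5.67 and 3.71 CPM in cKO (log2 fold change 1.38, SE 0.202, adjusted p = 0.00171, edgeR). The 6 response genes that were not tested, among them *Il6*, *Cxcl1* and *Cxcl2*, were near the floor.

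**Figure D4:**
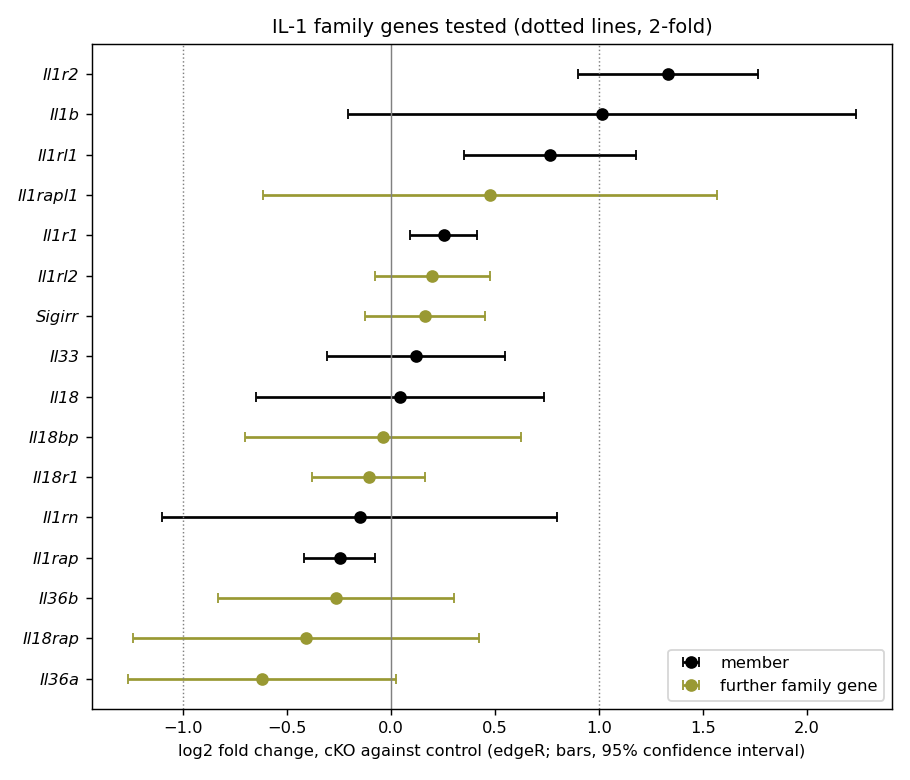
Log2 fold change with 95% confidence interval (edgeR) of the 8 members tested (black) and the 8 further family genes tested (olive), ordered by value, with dotted lines at 2-fold. *Il1r2* is the gene furthest to the right and *Il36a* and *Il18rap* are furthest to the left.

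Markers of cells known to carry these receptors were set beside *Il1r2* and *Il1rl1*. Neutrophil markers summed to 23.2 to 31.2 CPM in controls and 25.6 to 36.9 CPM in cKO, and 0 of 10 tested passed an adjusted p of 0.05 by edgeR (1 by DESeq2, 0 by limma-voom, 4 at an unadjusted p under 0.05, all higher). Of the 10, 9 lay above 0, and the median log2 fold change was 0.63. Their highest members were *Mmp9* (18.8 and 18.1 CPM) and *S100a9* (2.85 and 3.02 CPM). Most of the sum is *Mmp9*, and without it, again after the values were seen, the other 11 markers summed to 7.76, 9.86, 12.6 and 5.93 CPM in controls 1 to 4 and 20.5, 10.9, 11.1 and 10.1 CPM in cKO 1 to 4. These ranges overlap through control 3. *Mpo* (log2 fold change 1.29, adjusted p = 0.119, edgeR) and *Cxcr2* (0.76, adjusted p = 0.201) did not overlap between genotypes, and *Ly6g* (1.10, adjusted p = 0.171) and *Ltf* (1.00, adjusted p = 0.0939) did. Macrophage markers summed to 182 to 254 CPM in controls and 188 to 221 CPM in cKO, with 0 of 10 passing by edgeR, DESeq2 or limma-voom (1 lower at an unadjusted p under 0.05). They were led by *Lyz2* (54.8 and 48.0 CPM) and *Csf1r* (45.0 and 46.3 CPM). The part of either cell type in the *Il1r2* difference was not tested.

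For *Il1rl1*, the mast cell list was split. The whole list of 8 summed to 79.6 to 142 CPM in controls and 67.9 to 97.5 CPM in cKO, and 0 of 6 tested passed by edgeR. DESeq2 called 1 higher and 1 lower, limma-voom 2 higher and 1 lower, and 3 were higher and 1 lower at an unadjusted p under 0.05. The median of the 6 was 1.09 on the log2 scale. The sum is mostly *Hdc* (60.7 and 24.3 CPM) and *Kit* (29.3 and 28.5 CPM), which other cells also express. Without them, a choice made after the values were seen, the other 6 markers summed to 7.35, 7.04, 21.1 and 17.2 CPM in controls 1 to 4 and 40.0, 20.7, 21.7 and 37.9 CPM in cKO 1 to 4. The ranges overlap between control 3 and cKO 2. Of the markers tested, *Cma1* did not overlap between genotypes (log2 fold change 1.11, adjusted p = 0.0864, edgeR). *Mcpt4* (1.33), *Tpsb2* (1.28) and *Cpa3* (1.07) overlapped, and *Hdc* (-1.32) and *Kit* (-0.04) lay below 0. Both *Ms4a2* and *Fcer1a*, subunits of the mast cell IgE receptor, had at most 6 counts in any library. ILC2 and regulatory T cell markers, led by *Il17rb* and *Rora*, had 0 of 7 tested past the threshold by edgeR, DESeq2 or limma-voom, and 0 at an unadjusted p under 0.05. The part of mast cells in the *Il1rl1* difference was not tested.

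**Figure D5:**
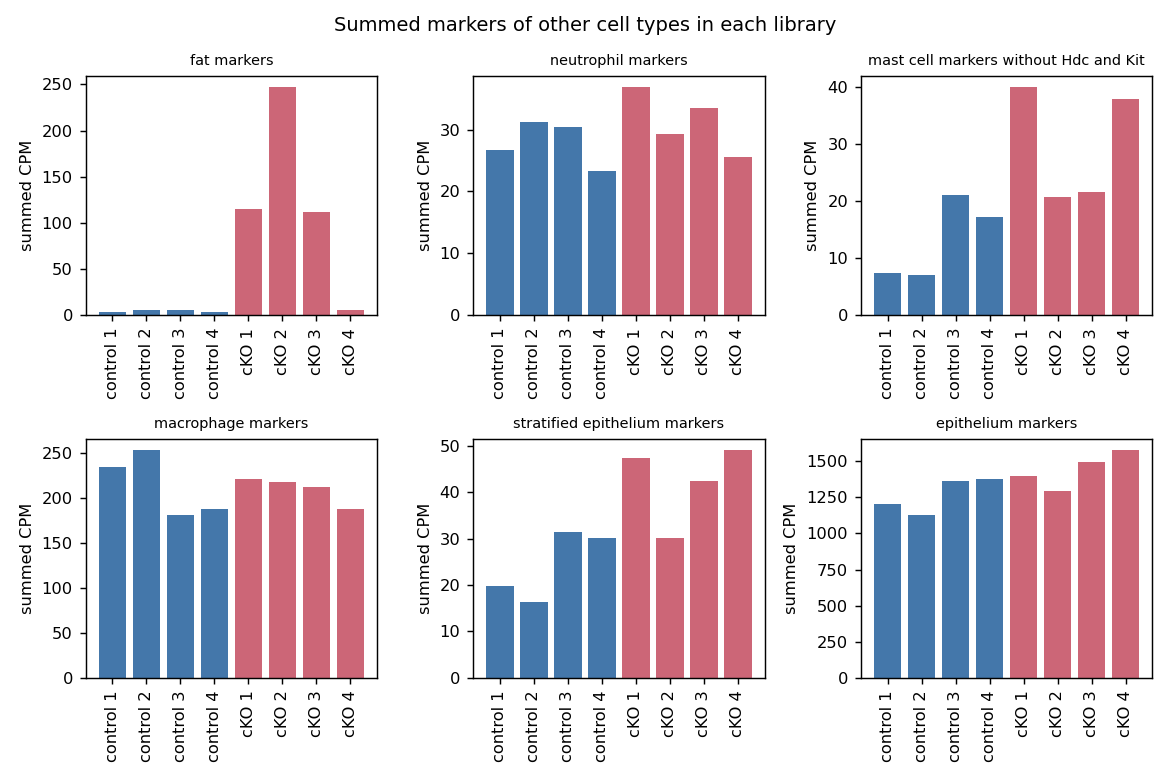
Summed CPM of markers of other cell types in each library (control blue, cKO red), each panel with its own axis from 0. Summed fat markers are 112 to 247 CPM in cKO 1 to 3 and 5.50 CPM in cKO 4, against 3.56 to 5.32 CPM in controls, and the mast cell panel leaves out *Hdc* and *Kit*, a choice made after the values were seen (7.04 to 21.1 CPM in controls and 20.7 to 40.0 CPM in cKO, against 79.6 to 142 and 67.9 to 97.5 CPM for the whole list).

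Structural cells were also checked. Epithelium markers summed to 1130 to 1376 CPM in controls and 1293 to 1578 CPM in cKO, led by *Krt8* and *Krt19*, with 0 of 7 past the threshold by edgeR (1 by DESeq2, 0 by limma-voom, 3 at an unadjusted p under 0.05). The stratified epithelium markers, led by *Krt15* and *Trp63*, summed to 16.4 to 31.6 CPM in controls and 30.1 to 49.2 CPM in cKO, with *Sprr1a* the 1 of 6 higher by edgeR (log2 fold change 0.89, adjusted p = 0.0284). DESeq2 called 1 of the 6 higher, limma-voom 2, and 3 were higher at an unadjusted p under 0.05. Among the remaining lists, stroma markers (led by *Col3a1* and *Col1a1*) had 1 of 7 higher, *Col3a1*, and 2 lower, *Hoxa10* (log2 fold change -0.62, adjusted p = 0.000377, edgeR) and *Hoxa11* (-0.49, adjusted p = 0.00522). For stroma DESeq2 called 2 higher and 2 lower, limma-voom 0 higher and 2 lower, and 2 were higher and 2 lower at an unadjusted p under 0.05. Skeletal muscle markers, led by *Acta1* (49.4 and 45.2 CPM) and *Tnnt3* (3.27 and 5.66 CPM), had 2 of 5 higher, *Tnnt3* (log2 fold change 0.80, adjusted p = 0.0295, edgeR) and the embryonic myosin gene *Myh3* (4.08, adjusted p = 0.00388). DESeq2 called 3 of these 5 higher, limma-voom 2, and 4 were higher at an unadjusted p under 0.05. *Myh3* was at 0 to 0.143 CPM in controls and 0.370 to 1.91 CPM in cKO, and *Myog*, a muscle transcription factor gene that was not tested, at 0 to 0.0387 and 0.185 to 1.36 CPM. Both were higher in every cKO library, cKO 4 included, than in any control, as *Il1r2* was, and so were *Tnnt3* and *Mylpf* (log2 fold change 0.82, adjusted p = 0.0577, edgeR). The summed list overlapped (44.9 to 76.3 CPM in controls and 40.7 to 65.2 CPM in cKO), but most of it is *Acta1*. Without that gene, a choice made after the values were seen, the other 6 markers summed to 4.51, 6.19, 5.24 and 4.83 CPM in controls 1 to 4 and 13.7, 14.4, 7.58 and 10.7 CPM in cKO 1 to 4, with every cKO library above every control. The part of muscle cells in the *Il1r2* difference was not tested. Smooth muscle markers (led by *Acta2* and *Myh11*) and endothelium markers (led by *Cdh5* and *Pecam1*) had 0 past the threshold by edgeR, with 1 and 2 at an unadjusted p under 0.05, 1 and 0 by DESeq2 and 0 and 0 by limma-voom. Stroma and smooth muscle markers had the highest sums of all lists.

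The genes most like *Il1r2* over the 8 libraries, by Pearson correlation of log2(CPM + 0.1) among 14455 genes with a mean of at least 1 CPM, were *Rian* (r = 0.981), *Sprn* (0.98), *Kif21b* (0.974), *Stap2* (0.971) and *Fndc3c1* (0.97). The points share the genotype split, and no p is given. Genes chosen for following *Il1r2* this closely share the direction of its genotype difference through that choice. Their log2 fold changes ran from 0.37 in *Stap2* to 3.22 in *Fndc3c1*.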

How the data were processed

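Whole uteri at PD10 gave 8 libraries (TruSeq stranded mRNA), 4 control and 4 cKO. Per the labels, the authors used Trimmomatic, FastQC, HISAT2, featureCounts and edgeR with build GRCm38, and versions, annotation release, strand setting and the treatment of multi-mapping reads are not given in the sources used here. The deposited files used hold raw read counts per gene (Entrez identifier), with no normalization by the authors. A deposited comparison table supplied only the pairing of identifiers and symbols, and its fold changes, p-values and FDR, like a normalized log2 table, were not used.

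Counts were fitted with edgeR 4.0.16 (R 4.3.3, limma 3.58.1, TMM scaling, robust quasi-likelihood test) over the 16658 genes above 0.2 CPM in at least 4 libraries, with Benjamini-Hochberg adjustment over all of them, after checks on simulated data. CPM are TMM-normalized, fitted log2 fold changes use a prior count of 0.125, and within-library ratios a pseudocount of 0.1 CPM. Single values were also compared by exact two-sided permutation. DESeq2 1.42.0 and other settings were alternatives. Exon lengths came from GENCODE M21 and promoters from RefSeq. Libraries differed beyond sampling noise in all 28 pairs (chi-square per gene 7.5 to 30.5). Floors and counts cover counting error only.

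Genes named are all members, *Ezh2*, every gene of the pathway lists past an adjusted p of 0.05 (or else the 2 highest), the 2 highest of each marker list, and the 5 genes most correlated with *Il1r2*. Outside that rule are the neighbours and overlapping genes of members, named by position, and genes named after their values were seen. The latter are marker genes past the threshold or not overlapping, *Il1f10*, *Ptgs2* and response genes near the floor. They also include *Adipoq*, *Ly6g*, *Ltf*, *Myog*, *Cpa3*, *Mcpt4*, *Tpsb2*, *Fcer1a* and *Ms4a2*. The members and lists were chosen with earlier results of these data known. *Il36a*, *Il36b* and *Il36g* were matched by synonym.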

Additional observations from a re-analysis of the deposited data

How the results depend on the processing

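*Il1r2* kept its direction in all 17 alternatives and its call in 15 of them, and leaving out any 1 library gave log2 fold changes of 1.23 to 1.46 with adjusted p from 0.00222 to 0.00988. It lost the call with the fat score as a covariate (1.18, adjusted p = 0.13) and with cKO 4 alone against the controls (1.13, adjusted p = 0.366), a setting chosen after seeing the data in which the lone library is assumed to vary like the controls. In both settings 0 members were differentially expressed and 0 had an adjusted p under 0.05. Over all genes the fat covariate left 38 differentially expressed, against 217 in the main fit. Why the *Il1r2* call was lost was not tested. The number of members past adjusted p was 1 to 2 when 1 library was left out, and 3 with DESeq2. Low-level or variable members changed sign: *Il1rn* was 0.27 with the fat covariate, 0.10 in cKO 4 alone and -0.43 to 0.14 leaving out 1 library; *Il33* was -0.059, -0.025 and -0.039 to 0.29 in the same settings; *Il18* was -0.17 to 0.32 leaving out 1 library. *Il1b* kept its sign but moved from 1.02 to 0.20 with the fat covariate and 0.50 in cKO 4 alone, and the *Il1rn* to ligand ratio ran from -1.44 to -0.19 leaving out 1 library. With the replicate block the *Il1r2* to *Il1r1* ratio differed by the same 1.03, with p = 0.12 by an exact sign-flip permutation test, the smallest that 4 pairs allow. Deviations of libraries sharing a number had correlations of -0.00354 to 0.194, and 3 of 8 libraries correlated best with their own number. The labels do not say whether the numbers pair the mice, and weak correlations cannot exclude it. The replicate block gave 253 differentially expressed genes, against 217 in the main fit, and 1.34 for *Il1r2* (adjusted p = 0.0018, edgeR). A filter of CPM over 1 gave 139 differentially expressed genes. Depth limits *Il1a* and *Il1b* most, at 1 to 18 counts per library.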
